A study of Homo sapiens with 6 samples.

Results

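The genes described here encode the AMP-activated protein kinase (AMPK) and the kinases that switch it on: the catalytic subunits PRKAA1 and PRKAA2, the beta subunits PRKAB1 and PRKAB2, the gamma subunits PRKAG1 and PRKAG2, and the upstream kinases STK11 (LKB1) and CAMKK2. They are 8 of the 54261 gene rows of a table of raw counts, taken by symbol. The group was selected on its measured expression in the same libraries, with PRKAA2 already known to be among the genes with the largest increase. The values of all 8 are therefore a description, without a p-value for any of them. Counts of them past a threshold are given beside the share of all genes, and nothing is read from those counts. The remaining gamma subunit gene, PRKAG3, had 0 counts in each library, which allows up to 3 counts, or 0.0574 to 0.0791 CPM (the count over the library total, scaled to 1e+06).

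Total RNA was sequenced from the established cell line 786-O, which comes from a human clear-cell renal carcinoma and lacks functional VHL, and from 7R, a derivative of it. The labels give the phenotype control for 786-O and sunitinib-resistant for 786-O (7R). Sunitinib is an inhibitor of several receptor tyrosine kinases, among them the VEGF and PDGF receptors. There were 3 libraries of each, named control and resistant here. The labels do not say whether the drug was present at harvest, whether 7R is a single clone, or whether replicates were grown as separate cultures. The spread between replicates, and with it each p-value, may therefore be technical. In bulk RNA, fewer cells that express a gene and less of its RNA per cell cannot be told apart.

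AMPK is a trimer that senses the energy state of the cell. The gamma subunit binds AMP, ADP and ATP, the beta subunit holds the complex together and binds glycogen, and the alpha subunit carries the kinase domain, which is active once a threonine in its activation loop is phosphorylated. STK11 phosphorylates that threonine when AMP is high and CAMKK2 does so when calcium rises. Active AMPK phosphorylates enzymes of lipid synthesis and regulators of mTORC1 and autophagy, which turns down ATP-consuming synthesis. Each subunit has alternative genes, and PRKAA2 is best known from muscle, heart and liver, while PRKAA1 is widely expressed.

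The comparison of PRKAA1 with PRKAA2 needs reads that can be assigned to the right gene. The stretches below are coding sequence of the longest GENCODE release 29 basic transcript of each gene, around the codon of the activation-loop threonine, which is in capitals (codon 183 in PRKAA1 and codon 172 in PRKAA2).
PRKAA1: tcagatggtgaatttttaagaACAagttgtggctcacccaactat
PRKAA2: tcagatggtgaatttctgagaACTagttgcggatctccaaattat
These 45 bases differ at 8 positions. Over the whole coding sequence (1680 and 1659 bases), 71.6% of 1635 aligned positions were identical. The longest run shared by the 2 transcripts was 24 bases and is in capitals in the next pair, within the glycine-rich start of the kinase domain.
PRKAA1: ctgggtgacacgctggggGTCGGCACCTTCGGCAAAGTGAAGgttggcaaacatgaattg
PRKAA2: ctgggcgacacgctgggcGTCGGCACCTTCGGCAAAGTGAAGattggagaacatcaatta
No stretch of 50 bases of the longest transcript of any of the 8 genes occurred in the same orientation in a GENCODE transcript of another gene. The opposite orientation was not compared. Overlaps with genes on the opposite strand exist for PRKAB1 (137 exonic bases with AC002070.1), PRKAG1 (532 with DDN-AS1), PRKAG2 (84 with PRKAG2-AS1, 0 counts) and STK11 (149 with CBARP). CBARP summed to 503 counts in control and 164 in resistant cells, against 16067 and 6456 of STK11. Whether the counting used strand is unknown, and reads in these overlaps cannot be told apart.

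The libraries held 37919629 to 52221491 counts. Resistant replicate 1 stood apart from the other resistant libraries (chi-square per degree of freedom 62.9 and 60.1, against 8.94 between the other pair and 12.4 to 35.5 between control libraries). The difference between the lines followed the GC content of the transcripts over all genes: the median log2 fold change was 1.32 in the lowest GC decile and -1.34 in the highest. Resistant replicate 1 differed from the other resistant libraries along the same axis, with medians of -0.40 and 0.28 in those deciles. Levels and fold changes below are on the TMM scale unless another scale is named, and values marked as adjusted come from libraries corrected by a spline on the GC content and length of transcripts. How much of that trend is technical was not tested.

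PRKAA2 was nearly silent in control cells and expressed in resistant cells, though per length it was the lowest of these genes in both lines. Its counts were 58, 57 and 52 in the control libraries and 1313, 1753 and 1947 in the resistant libraries. On the TMM scale these are 1.32, 1.31 and 1.15 CPM in control against 30.4, 41.0 and 45.9 CPM in resistant libraries. The groups lie far apart, and resistant replicate 1 is the lowest of its line. The log2 fold change (resistant over control) was 4.95 ± 0.19 (SE), a 31.0-fold higher level, with 1.26 ± 0.0963 CPM in control and 39.1 ± 7.91 CPM in resistant cells (SD, n = 3). After adjustment the levels were 2.27, 2.43 and 2.34 CPM in control and 25.4, 24.8 and 26.5 CPM in resistant libraries, a log2 fold change of 3.44 ± 0.11 (10.9-fold). The adjustment narrowed the spread of the resistant libraries from an SD of 7.91 to 0.840 CPM, and replicate 1 was no longer the lowest. PRKAA2 has 35.0% GC, in the lowest decile, and 25 of the 1393 genes of that decile had a larger unadjusted log2 fold change.

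PRKAA1, the catalytic subunit that both lines express, was 2.56-fold higher in resistant cells on the TMM scale. Its levels were 98.9, 84.4 and 79.2 CPM in the control libraries and 192, 236 and 243 CPM in the resistant libraries. The groups did not overlap, and the log2 fold change was 1.35 ± 0.13 (SE). With 36.1% GC, PRKAA1 lay close to the median of its decile (1.32), and 671 of the 1393 genes there had a larger value. The adjusted levels were 152, 133 and 143 CPM in control against 175, 166 and 166 CPM in resistant libraries. The adjusted log2 fold change was 0.25 ± 0.07, with groups that still did not overlap. With GC content alone removed it was 0.05 ± 0.07, so the remaining difference depends on the length term.

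**Figure D1:**
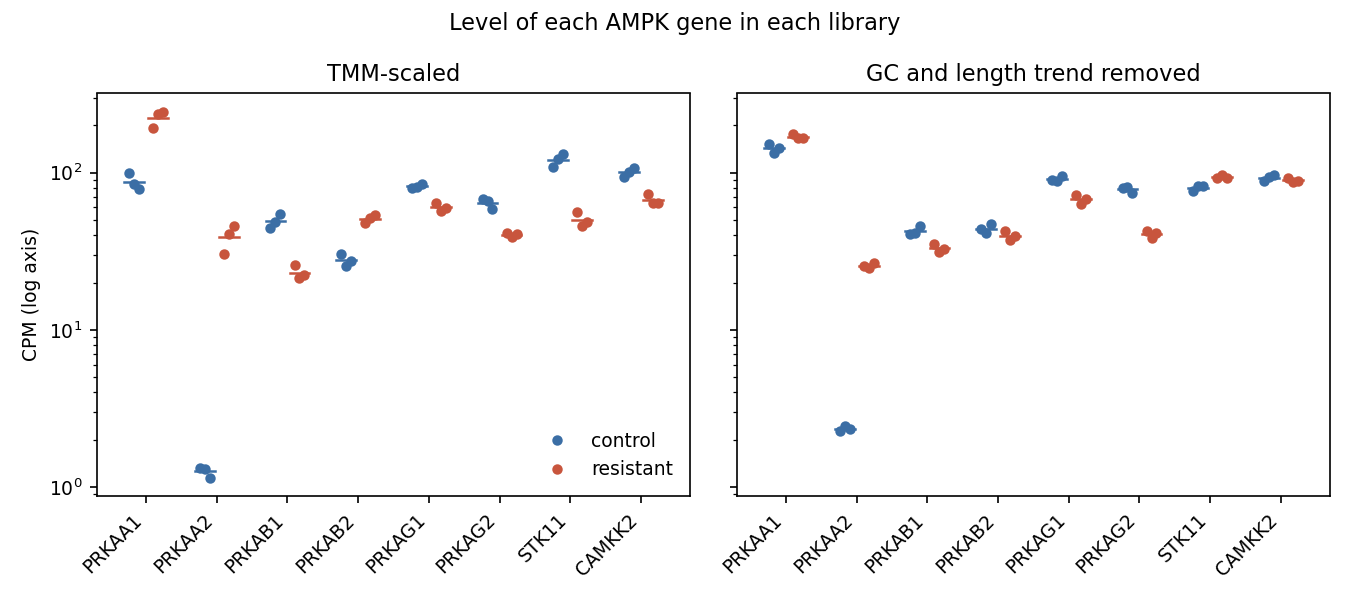
Level of each gene in each library, in CPM on a log axis, on the TMM scale (left) and after the GC and length trend was removed (right); points are libraries and lines are group means (n = 3). PRKAA2 lies between 1.15 and 1.32 CPM in control and between 30.4 and 45.9 CPM in resistant libraries on the left, and remains far apart on the right, where the groups of PRKAB2 and CAMKK2 overlap.

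The balance of the catalytic subunits differed between the lines, with a larger share of PRKAA2 in resistant cells. PRKAA2 made up 1.31%, 1.53% and 1.43% of the counts of both catalytic genes in the control libraries, and 13.7%, 14.8% and 15.9% in the resistant libraries. The lowest resistant share had a 95% Wilson interval of 13.0% to 14.4% and the highest control share one of 1.18% to 1.98% (counting error only). Divided by the median transcript length (1918 bases for PRKAA1 and 9314 for PRKAA2), the share was 0.297% ± 0.0229 in control and 3.45% ± 0.289 in resistant cells (SD, n = 3). With the longest transcript of each gene (5088 and 9347 bases) it was 0.781% and 8.62%, so the level of the share depends on which PRKAA1 transcripts the cells use. The log2 ratio of PRKAA2 to PRKAA1 was higher by 3.58 ± 0.10 (SE) in resistant cells. Library scaling cancels in this ratio, and so does length where both lines use the same transcripts, which gene counts do not show. It was 3.52 to 3.65 with any library left out and 3.20 ± 0.09 after adjustment. PRKAA1 remained the more abundant catalytic transcript in each library of each line.

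**Figure D2:**
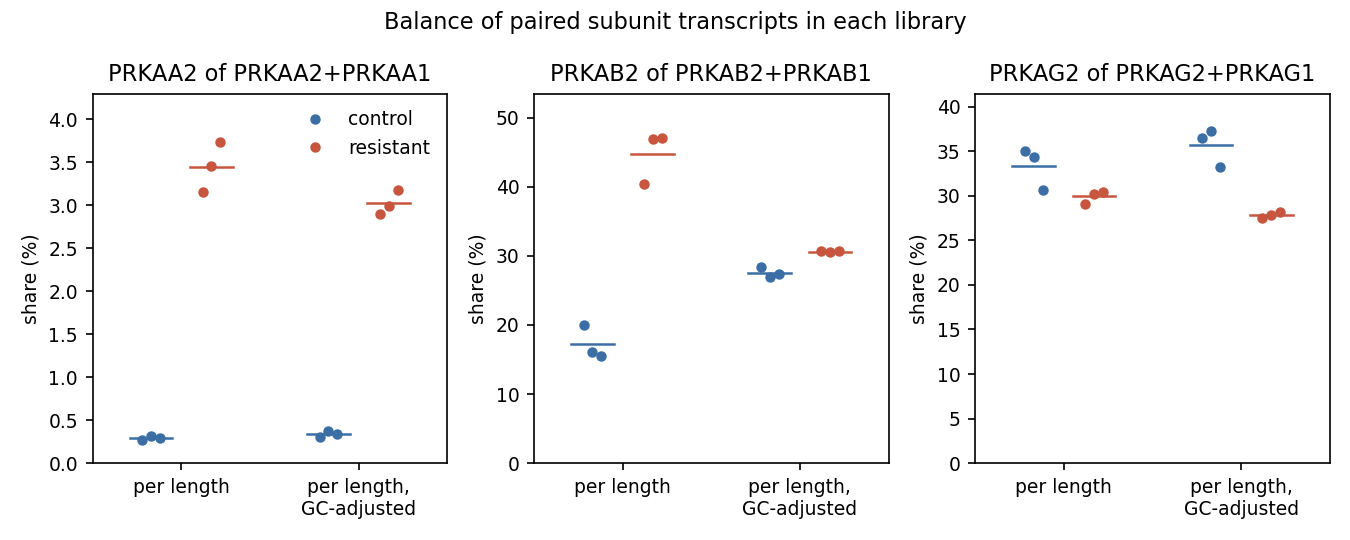
Share of the second gene of each subunit pair in the sum of the pair, in percent, per median transcript length without and with GC and length adjustment; points are libraries and lines are group means (n = 3), and each panel has its own axis from 0. The mean PRKAA2 share is 0.297% in control and 3.45% in resistant libraries before and 0.340% and 3.02% after adjustment, while the PRKAB2 share is 17.2% and 44.8% before and 27.6% and 30.6% after it.

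The beta subunit genes differed in opposite directions on the TMM scale. PRKAB1 had 44.5, 48.5 and 54.5 CPM in the control libraries and 25.9, 21.3 and 22.2 CPM in the resistant libraries, a log2 fold change of -1.09 ± 0.12 (SE). PRKAB2 had 30.4, 25.4 and 27.3 CPM in control and 47.9, 51.3 and 53.9 CPM in resistant libraries, a log2 fold change of 0.88 ± 0.11. Neither pair of groups overlapped. After adjustment PRKAB1 was still lower, with 40.5, 41.2 and 45.8 against 35.1, 31.3 and 32.8 CPM (log2 fold change -0.36 ± 0.08). PRKAB2 lost its difference and turned slightly the other way, with 43.8, 41.5 and 46.9 against 42.2, 37.4 and 39.4 CPM, overlapping groups and a log2 fold change of -0.15 ± 0.08. The log2 ratio of PRKAB2 to PRKAB1 was higher by 1.97 ± 0.19 (SE) in resistant cells before and by 0.21 ± 0.03 after adjustment. PRKAB1 has 53.3% GC and PRKAB2 41.4%, whereas the catalytic pair lies within 36.1% and 35.0%, and adjustment moved the beta balance more than the catalytic balance.

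Both gamma subunit genes were lower in resistant cells on each scale. PRKAG1 had 80.3, 81.3 and 85.0 CPM in the control libraries and 64.1, 57.2 and 59.6 CPM in the resistant libraries, with a log2 fold change of -0.45 ± 0.10 (SE), and -0.43 ± 0.07 adjusted. PRKAG2 had 67.7, 66.4 and 58.7 CPM in control and 41.0, 38.7 and 40.8 CPM in resistant libraries, with a log2 fold change of -0.68 ± 0.11. Its adjusted levels were 80.2, 81.3 and 74.2 against 42.4, 38.2 and 41.4 CPM, and its difference grew to -0.95 ± 0.08. PRKAG2 has 45.9% GC, and genes of that decile were mostly higher in resistant cells (median 0.48), with 1260 of 1392 above PRKAG2. It was, with PRKAA2, the gene farthest from zero after adjustment. The PRKAG2 share of the gamma pair per length was 33.4% ± 2.36 in control and 29.9% ± 0.750 in resistant cells (SD, n = 3), and 35.6% ± 2.11 and 27.8% ± 0.347 adjusted.

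Both upstream kinases were lower in resistant cells on the TMM scale, and neither difference held after adjustment. STK11 had 109, 123 and 132 CPM in the control libraries and 56.5, 45.8 and 48.5 CPM in the resistant libraries, a log2 fold change of -1.27 ± 0.12 (SE). It has the highest GC content of the 8 genes (64.9%), and its decile had a median of -1.34. After adjustment STK11 stood at 76.5, 82.4 and 81.6 CPM in control and 92.4, 95.9 and 91.8 CPM in resistant libraries, so that the direction reversed (0.22 ± 0.07) without overlap of the groups. CAMKK2 had 94.0, 100 and 106 CPM in control and 72.9, 64.3 and 64.2 CPM in resistant libraries, a log2 fold change of -0.58 ± 0.11. Its adjusted levels of 89.0, 93.3 and 96.1 against 92.5, 87.7 and 88.6 CPM overlapped (-0.05 ± 0.07).

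**Figure D3:**
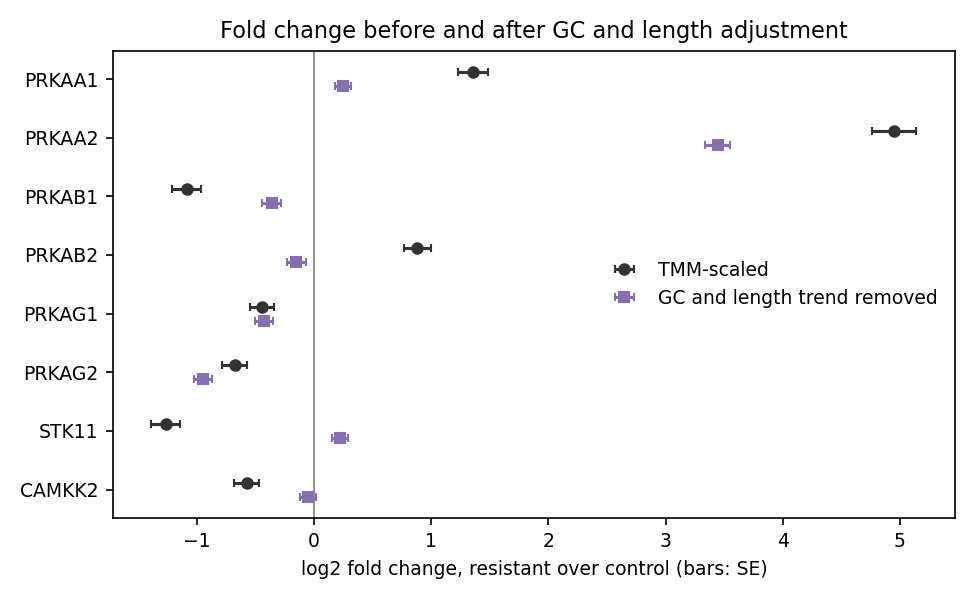
Log2 fold change of each gene, resistant over control, on the TMM scale (circles) and after the GC and length trend was removed (squares); bars are standard errors of the fit over 6 libraries. PRKAA2 stays at 3.44 after adjustment, PRKAG1 barely moves, PRKAG2 moves away from zero, and PRKAB2 and STK11 cross it.

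All 8 genes passed the filter on low counts. By edgeR's quasi-likelihood test at an adjusted p of 0.05, 3 of the 8 were higher and 5 lower, in a comparison in which 76.2% of all 16642 genes tested were called (39.3% higher and 36.9% lower) and groups did not overlap for 80.3%. After adjustment 3 were higher (PRKAA1, PRKAA2, STK11) and 3 lower (PRKAB1, PRKAG1, PRKAG2), where 67.0% of 13928 genes were called (34.4% higher and 32.6% lower). The groups of 6 of the 8 did not overlap there, as for 71.8% of genes. The difference between the lines was used to choose the genes, so nothing is read from these counts. With libraries scaled by total counts alone, which raises the median log2 fold change of all genes from 0.05 to 0.39 and the higher share of called genes from 51.6% to 62.5%, PRKAG1 (-0.10) and CAMKK2 (-0.23) were no longer past the threshold and the 8 genes kept their signs, with 3 higher and 3 lower. Without resistant replicate 1 the unadjusted log2 fold changes ran from -1.37 (STK11) to 5.10 (PRKAA2), again with 3 higher and 5 lower.

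Across the 8 genes the log2 fold change followed GC content (Spearman's rho -0.93, Pearson's r -0.78, n = 8), as it did over 13928 genes with a GC value (rho -0.68). These are descriptions over genes that share the same libraries. The 3 genes that were higher have 35.0% to 41.4% GC and the 5 that were lower have 45.9% to 64.9%. The libraries of the resistant line showed the same order among themselves. Replicate 1 differed from the mean of the others by -0.51 for PRKAA2, -0.32 for PRKAA1 and -0.13 for PRKAB2 (log2). The difference was 0.26 for STK11, 0.25 for PRKAB1, 0.18 for CAMKK2, 0.13 for PRKAG1 and 0.05 for PRKAG2. Control libraries also differed with GC content, in the other direction for replicate 1. Its difference was 0.27 for PRKAA1, 0.21 for PRKAB2, 0.12 for PRKAG2 and 0.10 for PRKAA2. It was -0.23 for STK11, -0.21 for PRKAB1, -0.14 for CAMKK2 and -0.05 for PRKAG1.

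**Figure D4:**
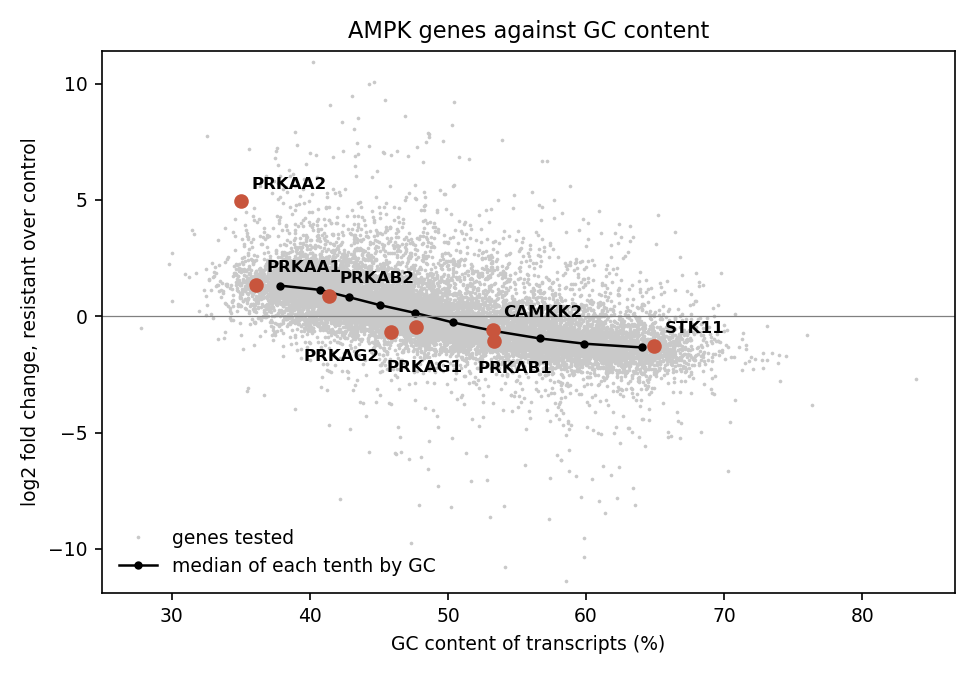
Log2 fold change (resistant over control, TMM scale) against the GC content of the transcripts in percent, for the genes tested (grey), the median of each GC decile (black line) and the 8 AMPK genes (red). PRKAA1, PRKAB2, CAMKK2 and STK11 lie near the line, PRKAA2 far above it, and PRKAG2, PRKAG1 and PRKAB1 below it.

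Levels of different genes can be compared only per length, here as TMM-scaled CPM per kilobase of the median transcript length. In control cells the order was PRKAG1 (51.2 ± 1.54, SD, n = 3), PRKAA1 (45.6 ± 5.32), STK11 (44.9 ± 4.33), CAMKK2 (26.4 ± 1.64), PRKAG2 (25.6 ± 1.94), PRKAB1 (24.7 ± 2.53), PRKAB2 (5.11 ± 0.465) and PRKAA2 (0.135 ± 0.0103). The control libraries of PRKAA1 overlap in range with those of PRKAG1 and of STK11, and those of CAMKK2, PRKAG2 and PRKAB1 overlap each other. In resistant cells PRKAA1 led with 117 ± 14.5, followed by PRKAG1 (37.5 ± 2.18), STK11 (18.6 ± 2.06), CAMKK2 (17.7 ± 1.31), PRKAG2 (16.0 ± 0.510), PRKAB1 (11.6 ± 1.24), PRKAB2 (9.42 ± 0.551) and PRKAA2 (4.20 ± 0.849). STK11 and CAMKK2 do not differ beyond their spread there. After adjustment PRKAA1 led in both lines, with 74.3 ± 4.90 in control and 88.1 ± 2.85 in resistant cells, ahead of PRKAG1 (56.6 ± 2.47 and 42.1 ± 2.56). Adjusted PRKAG2 and STK11 were next in control (31.3 ± 1.53 and 29.8 ± 1.19) and overlapped in range, while in resistant cells STK11 (34.6 ± 0.818) stood above PRKAG2 (16.2 ± 0.874). PRKAA2 was last in both lines on both scales, with 0.252 ± 0.00855 and 2.75 ± 0.0902 adjusted. The place of PRKAA1 depends on its length: with the longest transcript it stood at 17.2 ± 2.0 in control, beside CAMKK2 at 17.9 ± 1.11, and at 44.0 ± 5.47 in resistant cells. Summed by role per median length, the catalytic transcripts went from 45.8 ± 5.32 to 121 ± 15.3 CPM per kilobase, the beta transcripts from 29.8 ± 2.32 to 21.1 ± 0.870 and the gamma transcripts from 76.8 ± 0.419 to 53.6 ± 2.62. The log2 ratios of these sums were 1.40, -0.50 and -0.52, and 0.29, -0.30 and -0.59 after adjustment.

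The sequence just upstream of PRKAA2 is shown because the gene goes from near silence to expression. The 250 bases before its RefSeq start (GRCh38.p14, chr1:56645064-56645313, plus strand), with each CpG in capitals, hold 39 CpGs and 83.2% GC.
PRKAA2: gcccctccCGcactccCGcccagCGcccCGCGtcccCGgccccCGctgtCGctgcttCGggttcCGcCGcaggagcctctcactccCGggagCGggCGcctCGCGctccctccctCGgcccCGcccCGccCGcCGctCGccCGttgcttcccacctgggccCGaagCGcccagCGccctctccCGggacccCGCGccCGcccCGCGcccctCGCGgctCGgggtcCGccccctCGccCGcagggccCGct
Of 35116 RefSeq promoter windows of this length, 97.3% had fewer CpGs (median 11). The windows of other members held 31 CpGs for PRKAA1, 27 for PRKAB2, 30 for PRKAB1, 25 for PRKAG1, 37 for STK11 and 46 for CAMKK2. Whether CpG number relates to the difference between the lines was not tested. PRKAG2 has several listed starts, with 2 to 41 CpGs. The window of PRKAA2 held no CREB site (TGACGTCA, in 1.65% of windows), AP-1 site (TGACTCA, 4.20%), CARE of the ATF4 family (TGATGCAA, 0.772%), hypoxia core (ACGTG, 18.5%, which shares letters with the CREB site) or TATA box (TATAAA, 10.7%) on either strand. The hypoxia core occurred once each upstream of PRKAG1 and STK11. A match or its lack describes only these letters in this window.

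The genes around PRKAA2 were mostly silent or low. PLPP3 is a lipid phosphate phosphatase gene on the opposite strand. The 5' edge of its annotated span lies 21 bases from the start of PRKAA2 in GENCODE release 29. PLPP3 summed to 116 counts in control and 65 in resistant cells and did not pass the test (edgeR adjusted p = 0.0898). Its log2 fold change was -0.79 ± 0.40 (SE), and -0.82 adjusted for GC and length. The start of its basic transcript, inside that span, lies 65.8 kb away. C1orf168 (FYB2), C8A and C8B, the 3 nearest protein-coding genes on the other side, had 0 counts in each library. USP24, a deubiquitinase gene 1430 kb away, rose by 1.44 ± 0.12 (adjusted p = 7.53e-07), and by 0.47 after adjustment. AC119674.2, which lies between USP24 and PRKAA2, was not matched in the table.

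The genes whose profile over the 6 libraries was most like that of PRKAA2 were LOC100421558 (Euclidean distance 0.340 between mean-centred log2 CPM), KDM7A (0.521), AOAH (0.706), PCLO (0.753) and LOC107986874 (0.779), among 10514 genes with at least 5 CPM on average. The first and the last of these have no GC value and so no adjusted value. KDM7A, a histone demethylase, went from 2.34 ± 0.0939 to 60.9 ± 5.71 CPM (SD, n = 3), or 4.70 on the log2 scale, and 3.29 after adjustment. PCLO, a presynaptic scaffold protein, had 4.89 and 3.95. AOAH, an enzyme that deacylates lipopolysaccharide, had 5.32 before and 5.36 after adjustment. AOAH has 48.2% GC against 35.0% in PRKAA2, and KDM7A has 38.5%. The measure is set mostly by the size of the difference between the lines.

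Genes that work with the upstream kinases moved in both directions. Of 10 tested partners, which are the pseudokinases and scaffolds that activate STK11, the alternative kinases MAP3K7 and CAMKK1, and calmodulin, 3 rose and 6 fell (median log2 fold change -0.59), where 39.3% of all genes tested rose and 36.9% fell (median 0.05). After adjustment 2 rose and 4 fell (median -0.06), where 34.4% of all genes rose and 32.6% fell (median 0.02). CAB39, the scaffold MO25 of the STK11 complex, rose from 63.9 ± 11.0 to 138 ± 15.0 CPM (SD, n = 3; edgeR adjusted p = 1.26e-05), a log2 fold change of 1.11 ± 0.14 (SE), and still by 0.55 after adjustment. CAMKK1, the relative of CAMKK2, fell from 51.6 ± 1.66 to 19.6 ± 2.06 CPM (-1.40 ± 0.12, adjusted p = 6.32e-07), and had -0.33 after adjustment. MAP3K7 (TAK1), which can phosphorylate the AMPK activation loop, rose by 1.31 ± 0.14 (adjusted p = 4.22e-06), and its activator TAB1 fell (-1.24 ± 0.13, adjusted p = 2.94e-06). Neither passed after adjustment (0.02 and 0.04).

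Regulators of AMPK, among them the folliculin complex, sestrins, phosphatases and ubiquitin ligase genes, gave 5 higher and 3 lower of 10 tested (median 0.58; 39.3% and 36.9% of all genes), and 2 higher and 3 lower after adjustment (median -0.07; 34.4% and 32.6% of all genes). PPM1A, a phosphatase, turned from higher to lower (0.99 and -0.31). Passing only after adjustment were the sestrin SESN2, higher (0.39 and 1.51), and the phosphatase subunit gene PPP2CA, lower (0.14 and -0.87). All are named after their values were seen. FNIP1, which binds folliculin and AMPK, rose from 27.8 ± 3.15 to 80.8 ± 16.3 CPM (SD, n = 3; log2 fold change 1.54 ± 0.16, SE; edgeR adjusted p = 2.47e-06) and by 0.24 after adjustment (adjusted p = 0.0160). FLCN, folliculin itself, had -1.16 ± 0.13 (adjusted p = 4.43e-06) but did not pass after adjustment (-0.06, adjusted p = 0.524). TRIM28, part of the ligase that MAGE proteins direct to AMPK, fell from 686 ± 49.0 to 202 ± 49.8 CPM (-1.76 ± 0.15, adjusted p = 8.64e-07; -0.34 after adjustment). UBE2O, a ubiquitin ligase of the PRKAA2 protein, had -0.997 ± 0.11 (adjusted p = 3.87e-06), and 0.0070 after adjustment (adjusted p = 0.928). PPM1E had 0 counts in each library, and SESN3, MAGEA3 and MAGEA6 were too low to test.

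Transcripts of AMPK substrates moved in both directions. Of 31 tested, 10 rose and 15 fell (median -0.51), where 39.3% of all genes rose and 36.9% fell. After adjustment 15 rose and 9 fell (median 0.15), where 34.4% of all genes rose and 32.6% fell, and with the replicate block added 12 rose and 9 fell. The genes called in the same direction on both scales were 8 higher and 7 lower. ULK1, CRTC2, KLC2 and PPP1R12C turned from lower to higher (named after their values were seen). ACACB, the acetyl-CoA carboxylase at the mitochondrial membrane, fell from 5.54 ± 1.31 to 0.506 ± 0.0933 CPM (SD, n = 3). Its log2 fold change was -3.45 ± 0.28 (SE; edgeR adjusted p = 5.15e-07), and -2.93 after adjustment (adjusted p = 1.58e-06). TSC2, an inhibitor of mTORC1, fell from 140 ± 9.33 to 47.4 ± 3.57 CPM (-1.56 ± 0.11, adjusted p = 2.26e-07), and had -0.41 after adjustment (adjusted p = 1.57e-04). PFKFB3, which makes the activator of phosphofructokinase, fell from 222 ± 16.4 to 80.5 ± 8.40 CPM (-1.47 ± 0.11, adjusted p = 3.93e-07), and had -0.26 after adjustment (adjusted p = 0.0300). GFPT1, of the hexosamine pathway, rose by 1.56 ± 0.13 (adjusted p = 6.90e-07) but did not pass after adjustment (0.15, adjusted p = 0.0550).

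**Figure D5:**
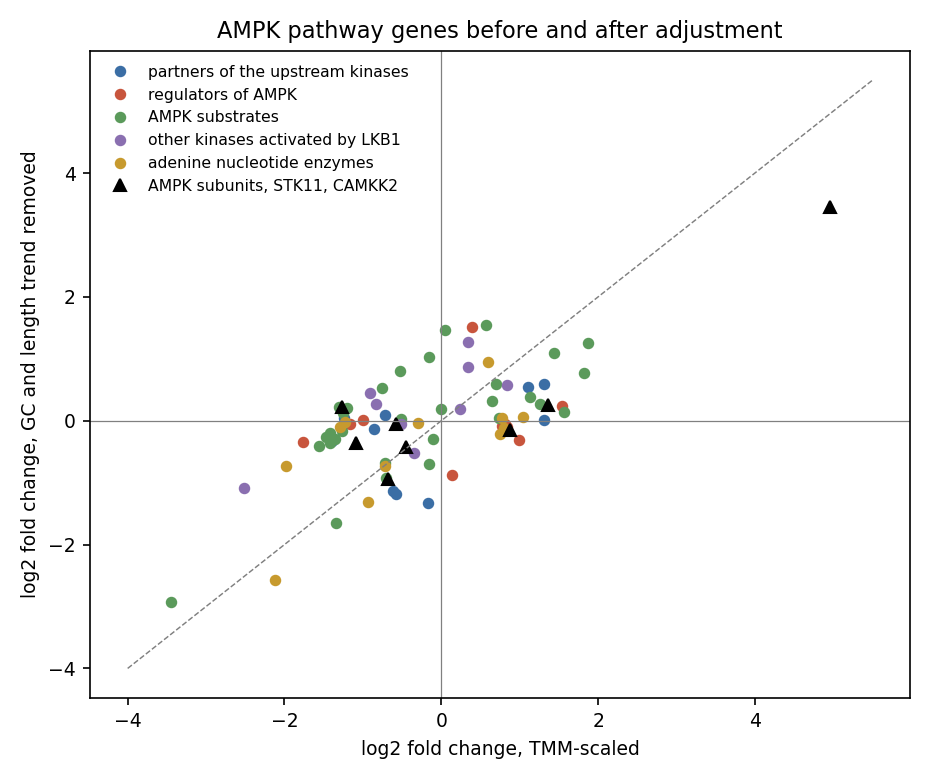
Log2 fold change (resistant over control) on the TMM scale against that after GC and length adjustment, for the tested genes of the 5 pathway lists (circles, coloured by list) and the 8 AMPK genes (triangles); the dashed line marks equal values. PRKAA2 lies at 4.95 and 3.44, and ACACB at -3.45 and -2.93, while many other genes lie near zero on the vertical axis.

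The other kinases that STK11 activates also moved in both directions. Of 9 tested, 3 rose and 5 fell (median -0.35; 39.3% and 36.9% of all genes), and after adjustment 5 rose and 1 fell (median 0.27; 34.4% and 32.6% of all genes). Without control replicate 2 the unadjusted list had 1 higher, and without resistant replicate 1 it had 5. SNRK rose from 14.6 ± 2.22 to 26.1 ± 1.34 CPM (SD, n = 3; log2 fold change 0.84 ± 0.13, SE; edgeR adjusted p = 9.95e-05), and by 0.57 after adjustment. The microtubule-affinity kinases MARK2 (-0.84 ± 0.12, adjusted p = 3.48e-05) and MARK4 (-0.91 ± 0.12, adjusted p = 1.65e-05) fell before and rose after adjustment (0.27 and 0.45, adjusted p = 0.00535 and 1.96e-04). SIK3 had -0.51 ± 0.11 (adjusted p = 7.81e-04) and -0.05 after adjustment (adjusted p = 0.533). SIK1 summed to 20 counts in control and 3 in resistant cells, BRSK2 had 64 and 2, and MARK1 had 0 and 31, all too few to pass the filter. Among the lower genes before adjustment was BRSK1, with 19, 19 and 41 counts in control and 5, 4 and 4 in resistant libraries. BRSK1 passed the filter only through the control libraries and did not pass the test after adjustment (-1.08), and nothing is read from its call.

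Enzymes that set the adenine nucleotide pool gave 5 higher and 7 lower of 12 tested (median -0.51; 39.3% and 36.9% of all genes), and 1 higher and 5 lower after adjustment (median -0.11; 34.4% and 32.6% of all genes). The adenylate kinase AK4, named after its values were seen, turned from higher to lower (0.75 and -0.22). NT5E (CD73), which makes adenosine from AMP outside the cell, fell from 69.2 ± 3.0 to 15.9 ± 8.55 CPM (SD, n = 3). Its log2 fold change was -2.12 ± 0.27 (SE; edgeR adjusted p = 1.85e-05), and -2.57 after adjustment (adjusted p = 1.02e-05). APRT, which salvages adenine, fell from 54.7 ± 4.13 to 13.9 ± 2.66 CPM (-1.98 ± 0.14, adjusted p = 2.97e-07; -0.73 after adjustment). The adenylate kinase AK1 (-1.23 ± 0.12, adjusted p = 2.20e-06) and the AMP deaminase AMPD2 (-1.29 ± 0.11, adjusted p = 6.62e-07) fell before adjustment and did not pass after it (-0.02 and -0.10). The creatine kinases CKM and CKMT2, the copy CKMT1A and the muscle deaminase AMPD1 had 0 counts in each library.

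PRKAA2 is abundant in muscle, and the extraction text of the labels names a brain region, so markers of both tissues were read beside it. Of 9 skeletal muscle markers, MYOD1, MYOG, CKM, MYH1, MYH2 and MYH7 had 0 counts in each library, ACTA1 and DES had 5 or fewer counts in all, and TTN, the only one to pass the filter, rose before and fell after adjustment. The sum of the 9 was 3.80 to 4.95 CPM in control and 10.05 to 16.5 CPM in resistant libraries, and TTN alone was at 8.49 to 10.4 and 6.70 to 8.29 CPM adjusted. Of 18 brain markers, GAD2, STMN2, MOG and P2RY12 had 0 counts, and the sum of the list, most of it NEFL, was 129 to 145 CPM in control and 112 to 136 CPM in resistant libraries. Over unscaled library totals the order turned, with 111 to 129 and 127 to 152 CPM, and the adjusted sums of the 7 tested genes overlapped (139 to 157 and 133 to 167 CPM). Of the 7 tested brain markers 4 rose and 2 fell, and 5 and 2 after adjustment. SYT1 (log2 fold change 2.49, and 1.47 adjusted), SNAP25 (1.96 and 1.34), MBP (0.65 and 1.61) and AQP4 were higher on both scales. NEFL (-0.57 and -0.63) and GAD1 (-1.20 and -0.79) were lower on both, and RBFOX3 passed only after adjustment (0.57 and 1.92). AQP4 had 0 counts in each control library and 12, 17 and 17 in the resistant libraries. It passed the filter only through the line where it is higher, and nothing is read from its call. Of all genes tested 39.3% rose and 36.9% fell, and 34.4% and 32.6% after adjustment. PTPRC and CD3E, of blood cells, had 0 counts. The 7 blood and endothelial markers summed to 40.1 to 47.7 CPM in control and 9.26 to 11.4 CPM in resistant libraries (31.4 to 36.6 and 14.3 to 17.2 CPM adjusted, 3 tested genes). Most of that sum was CD68, at 42.1 ± 3.79 CPM in control and 9.24 ± 0.962 CPM in resistant libraries (SD, n = 3). HBB (39 and 88 counts) and PECAM1 (26 and 62 counts), also tested, had log2 fold changes of 1.22 and 1.29 and did not pass. The 10 renal epithelial markers all had counts, but EPCAM had only 0 in control and 6 in resistant cells, and LRP2 2 and 14. The list summed to 3101 to 3720 CPM in control and 1369 to 1668 CPM in resistant libraries (2484 to 2651 and 2248 to 2467 CPM adjusted, 8 tested genes). Its most abundant gene was KRT8, at 1609 ± 117 CPM in control and 415 ± 95.4 CPM in resistant libraries (SD, n = 3). Of 8 tested, 6 were lower and 1 higher, and 2 lower and 4 higher after adjustment. The shares of all genes beside the renal counts are those given for the brain markers. The part of other cell types in the PRKAA2 difference was not tested.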

How the data were processed

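Total RNA of 3 control and 3 resistant libraries was analysed from the raw counts that the authors deposited, 1 row per gene symbol and 1 column per library. HISAT2 2.0.4 is named per the submitters' processing notes. Not given in the sources used here are the counting program, strand setting, genome build and annotation. Libraries were grouped by title, and 0 sample columns were left over. The lists of genes and the members were chosen with earlier results of these data known.

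Genes were filtered with edgeR's filterByExpr (16642 of 54261 kept), scaled by TMM and compared by the quasi-likelihood test of edgeR 4.0.16 in R 4.3.3, with Benjamini-Hochberg adjustment over all genes tested at 0.05. SE is the size of the log2 fold change divided by the root of the F statistic. GC content and length are medians over GENCODE release 29 basic transcripts (35314 gene rows matched). For the adjustment, natural splines with 6 degrees of freedom on GC and 5 on log2 length were fitted to each library's deviation from the gene mean (log2 CPM, prior count 1) and used as offsets, with TMM recomputed. Any biological relation with GC content is removed too. Promoter windows are from RefSeq (GRCh38.p14). DESeq2 1.42.0 was an alternative.

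Genes named are the 8 members and PRKAG3, the 4 with the smallest p of each pathway list, the 3 nearest coding genes on each side of PRKAA2 and the 5 nearest profiles. List genes named for having few or 0 counts, and the markers named, were chosen after their values were seen. No 2 replicates were as alike as counting noise would allow (chi-square at least 8.94 for each degree of freedom). Tested on simulated counts of this comparison with 13682 genes, edgeR recovered 47.0% of 1.5-fold changes, 71.9% of 2-fold changes and 98.5% of 4-fold changes. With the GC and length trend added (13699 genes), the unadjusted test made 9442 false calls and the adjusted test 12. The adjusted test recovered 38.8% of 1.5-fold, 79.7% of 2-fold and 93.8% of 4-fold changes. The simulated trend was drawn from the same splines that remove it, so a low number of false calls was built in.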

Additional observations from a re-analysis of the deposited data

How the results depend on the processing

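The member counts of 3 higher and 5 lower were kept with RLE and upper-quartile factors, with each filter, by DESeq2 and with any library left out. In the main fit 76.2% of all genes tested were called, and 67.0% with GC content and length removed. The members were chosen on this contrast, so nothing is read from their counts under any setting. The lower members numbered 3 with library size alone, with GC content and length removed, with GC content alone removed, and with both removed in the fit with a replicate block; the higher members then numbered 3, or 2 with GC content alone removed. Replicate numbers did not pair the libraries (correlations of same-numbered deviations -0.13, -0.013 and -0.058, and no library correlated best with its own number). The replicate block left 3 higher and 5 lower members and 12097 called genes in place of 12683; it moved no other count here by over 1.5 times.

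Reversals occurred only when GC content was removed. In the order GC and length, GC alone, GC and length with the block, and GC and length without resistant replicate 1, the log2 fold change of PRKAB2 was -0.15, -0.082, -0.15 and -0.19, of STK11 0.22, 0.22, 0.22 and 0.23, of MARK4 0.45, 0.47, 0.45 and 0.48, and of MARK2 0.27, 0.28, 0.27 and 0.26. UBE2O had 0.0070, 0.11 and 0.0071 under the first 3, TAB1 0.044 with GC and length and 0.042 with the block, and SIK3 0.012 with GC alone. In the same order of settings, higher regulators numbered 2, 2, 2 and 2, higher adenine nucleotide enzymes 1, 1, 1 and 1, higher kinases activated by STK11 5, 5, 5 and 7, and lower ones 1, 1, 1 and 2 (3 with library size alone; with 1 library left out, 1 to 5 higher and 5 to 6 lower). Lower AMPK substrates numbered 9 under each of the first 3, and higher ones 18 with GC alone.

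The PRKAA2 share was 1.43% and 14.8% as counts, 0.781% and 8.62% with the longest transcripts and 0.340% and 3.02% with GC and length removed, and the change of the log2 ratio was 3.20 there. The log2 ratios of the catalytic, beta and gamma sums were 1.74, -0.16 and -0.18 with library size alone, 0.29, -0.30 and -0.59 with GC and length removed, and 0.095, -0.39 and -0.72 with GC alone removed. The beta sum was -0.39 with the longest transcripts and the gamma sum -0.46 with upper-quartile factors. All 5 genes most like PRKAA2 stayed the nearest with RLE factors, upper-quartile factors and library size alone.

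With 52 to 58 counts of PRKAA2 in each control library, its control level has the largest counting error of the 8, and the number of 3 libraries a line limits each error given.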
